A study of Mus musculus with 18 samples.

Results

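The 10 genes described here encode the enzymes that start mucin O-glycans and build their core structures. They were taken by symbol from the 24047 genes of the count table, as Galnt3, Galnt4, Galnt7 and Galnt12 of the initiating transferases, C1galt1 and its chaperone C1galt1c1 of core 1, Gcnt1, Gcnt3 and Gcnt4 of core 2, and B3gnt6 of core 3. Each of the 10 was counted in every library, and the lowest raw count was 31, for Gcnt4. The set was chosen by the counts of B3gnt6 in germ-free mice, which earlier results of these data had shown to differ between the genotype labels. For this reason the germ-free genotype comparison is given as a description without a test for all 10 genes, and B3gnt6 is tested in no comparison that includes germ-free libraries.

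Mucin O-glycosylation takes place in the Golgi, where a polypeptide GalNAc-transferase attaches the first sugar, N-acetylgalactosamine, to a serine or threonine of the mucin. That sugar is then extended by galactose to form core 1, or by N-acetylglucosamine to form core 3, and a branch added to core 1 makes core 2. B3GNT6 is the core 3 synthase and is known for its place in the colon, where core 3 glycans are a main type on the gel-forming mucin MUC2. C1GALT1 is the core 1 synthase and needs the ER chaperone COSMC, the product of C1galt1c1, to be active.

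Colon crypt epithelium of C57BL/6 mice was profiled by RNA-Seq, with 3 libraries in each of 6 groups. WT and Ern2-/- mice were each examined in 3 microbial states. The Ern2 product, IRE1β, senses ER stress in epithelia of mucosal surfaces. The CONV mice were raised conventionally under specific pathogen–free conditions, GF mice were rederived germ free and kept in isolators, and COLONIZED mice were GF mice that received cecal microbes of WT donors by a single gavage and were examined at 14 days. Ages were not given in the sources used here, nor was a batch of sequencing or of extraction. The labels number the libraries of a group without naming animals. Sex patterns, given with the library totals, differed within 4 of the 6 groups, which therefore hold more than 1 animal, and p-values measure the spread between these libraries. The Ern2-/- mice came from 1 donated line, for which the methods name no tissue-specific Cre.

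Library totals ran from 5.87e6 to 23.2e6 counts, and the shallow libraries were those of the CONV groups, with CONV-WT replicate 3 at 8.20e6 and CONV-Ern2-/- replicates 2 and 3 at 7.08e6 and 5.87e6. Normalized Ern2 counts, which are raw counts divided by the library's size factor, were 2877, 386 and 3336 in replicates 1, 2 and 3 of GF-Ern2-/-, 2567, 1325 and 1885 in COLONIZED-Ern2-/- and 998, 1622 and 1487 in CONV-Ern2-/-. The 9 WT libraries held 1909 to 3100.3, so replicates 1 and 3 of GF-Ern2-/- and replicate 1 of COLONIZED-Ern2-/- go against their label. Replicate 3 of COLONIZED-Ern2-/- lies just below the lowest WT library, so this split rests on a narrow margin. Gene counts do not show which part of the transcript the knockout removes, and all directions between genotypes here refer to the labels. The pattern of Xist and Y-linked genes, which tells male from female libraries, was male in 3 of 3 CONV-Ern2-/- libraries and 1 of 3 CONV-WT libraries, in 2 of each COLONIZED group, in 2 of GF-Ern2-/- and in 0 of GF-WT. The epithelial label held, since 6 epithelial markers summed to 105318 to 151632 normalized counts in each library, against 44.5 to 340 for 6 mesenchymal and 81.4 to 362 for 7 immune markers. CONV-WT replicate 3 stood apart from the other 2 libraries of its group, with a correlation of log2 values over genes of 0.976 and 0.979 against 0.992 between those 2, and GF-Ern2-/- replicate 2 less so, with 0.983 and 0.983 against 0.990.

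B3gnt6 lies on the minus strand at chr7:98192417-98199481 (GRCm38, GENCODE M21), on the same chromosome as Ern2 at chr7:122169893-122186207, at a distance of 24.0 Mb. Its coding sequence of 1173 bases is held in 1 exon. The first 150 coding bases, at chr7:98194602-98194751 on the minus strand, are shown because this gene carries the main genotype difference, with the start codon in capitals.
B3gnt6 coding start: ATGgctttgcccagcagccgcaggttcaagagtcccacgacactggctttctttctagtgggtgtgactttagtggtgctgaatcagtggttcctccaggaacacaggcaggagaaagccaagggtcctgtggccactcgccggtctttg

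Promoter sequences of 300 bases, from 250 before to 50 after a transcription start, were matched by symbol in RefSeq (GRCm38.p6) for 5 of the 10 genes, with 8 entries in all. These were Galnt3, C1galt1, Galnt7, Gcnt4 and Gcnt1. Each entry was searched on both strands for CCACG, the core of an element that XBP1 is known to bind, and for CAGCTG, an E box. CCACG was found in 3 of the 8 entries and in 32.8% of 32851 promoters of this length, and CAGCTG in 2 of the 8 and in 16.3% of them. The entry of Galnt3 and the entry of Gcnt1 with the most matches are shown because these 2 genes were called in opposite directions in COLONIZED-WT against GF-WT. Capitals mark CCACG or its reverse complement, and neither entry holds CAGCTG. The Gcnt1 entry was picked by its number of matches, and the other entries of Gcnt1 hold 0 matches of CCACG. Which start is used in crypts was not examined. A match describes the letters and is not a bound site.
Galnt3 promoter, chr2:66124744-66125043, minus strand: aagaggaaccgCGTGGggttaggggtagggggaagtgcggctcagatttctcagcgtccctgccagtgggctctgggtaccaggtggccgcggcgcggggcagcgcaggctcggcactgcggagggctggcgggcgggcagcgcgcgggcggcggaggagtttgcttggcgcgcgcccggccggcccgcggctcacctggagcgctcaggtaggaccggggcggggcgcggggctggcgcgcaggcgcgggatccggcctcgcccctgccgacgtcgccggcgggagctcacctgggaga
Gcnt1 promoter, chr19:17356618-17356917, minus strand: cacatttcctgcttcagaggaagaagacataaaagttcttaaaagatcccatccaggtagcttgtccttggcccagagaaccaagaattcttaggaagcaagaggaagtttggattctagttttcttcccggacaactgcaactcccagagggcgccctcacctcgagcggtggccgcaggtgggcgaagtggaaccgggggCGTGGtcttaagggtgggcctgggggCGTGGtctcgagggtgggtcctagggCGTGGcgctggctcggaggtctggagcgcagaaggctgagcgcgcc

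Levels can be compared between genes only per length, and the mean over 18 libraries is given as normalized counts per kb of annotated exon. Galnt4 stood highest with 1023 per kb, followed by Galnt12 with 923, Gcnt3 with 857 and Galnt7 with 697. C1galt1c1 (495), Galnt3 (249), C1galt1 (222) and B3gnt6 (108) were intermediate, and Gcnt1 (51.1) and Gcnt4 (37.4) were lowest. Within GF-WT the order began with Gcnt3 (1002 ± 625 per kb, SD, n = 3), Galnt4 (910.5 ± 53.9), Galnt12 (805 ± 139) and Galnt7 (750.1 ± 77.9), and each of these differed from the next by less than the larger SD of the pair. The same held for C1galt1 (232 ± 78.5), Galnt3 (201 ± 8.27), B3gnt6 (135 ± 72.9) and Gcnt1 (85.5 ± 3.54). C1galt1c1 (551 ± 95.7) stood apart from its neighbours by more than that, and Gcnt4 (47.6 ± 27.5) was below Gcnt1. Across all libraries B3gnt6 had the widest range of the 10 genes, with 17.3-fold between its lowest and highest normalized count, and Galnt12 the narrowest with 2.38-fold.

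To examine whether the core 3 enzyme differs with the Ern2 genotype, B3gnt6 was first read in each library. In CONV-WT its normalized counts in replicates 1, 2 and 3 were 511, 695 and 201, and in CONV-Ern2-/- they were 74.1, 71.1 and 113. COLONIZED-WT libraries held 391, 469 and 631, and those of COLONIZED-Ern2-/- 142, 69.3 and 87.3. GF-WT libraries held 178, 272 and 513, against 84.3, 40.1 and 68.8 for GF-Ern2-/-. In CONV and in COLONIZED mice each library labelled Ern2-/- was below each WT library, and such separation of 3 and 3 libraries held for 21.1% and 29.0% of genes. The closest of these 12 libraries were COLONIZED-Ern2-/- replicate 1, whose Ern2 count goes against its label, and CONV-WT replicate 3. The GF libraries were separate too, as for 6.10% of genes, but theirs are the counts that chose the set, and their separation is a description only.

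**Figure D1:**
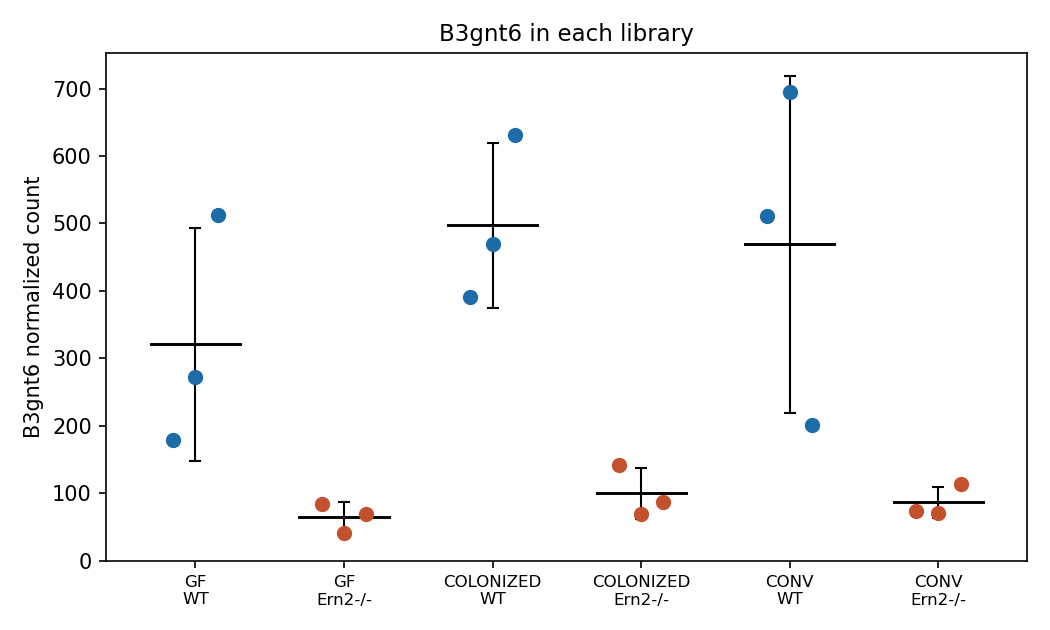
Normalized count of B3gnt6 (linear axis from 0) in the 18 libraries. Points are libraries in the order of their replicate number, blue for WT and red for Ern2-/-, with the mean as a horizontal line and the SD of 3 libraries as the bar. All Ern2-/- points lie between 40.1 and 142 and all WT points between 178 and 695.

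B3gnt6 fell in CONV-Ern2-/- compared with CONV-WT, from a mean of 469 ± 249.9 to 86.1 ± 23.4 normalized counts (SD, n = 3). The log2 fold change was −2.46 (SE 0.49), or 5.49-fold lower, with a DESeq2 adjusted p of 5.22e-05. The quasi-likelihood test of edgeR gave an adjusted p of 0.0569, which misses the threshold of 0.01, and edgeR called 0 of all genes here, with 2151 at an unadjusted p under 0.05. DESeq2 called 2.87% of the genes it tested in this comparison.

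In COLONIZED mice the fall was from 497 ± 122 to 99.7 ± 38.1 normalized counts (SD, n = 3). The log2 fold change was −2.32 (SE 0.27), or 4.98-fold lower, and both DESeq2 (adjusted p = 5.15e-14) and edgeR (adjusted p = 0.00577) called it. DESeq2 called 1.20% of genes in this comparison and edgeR 0.0931%. Without COLONIZED-Ern2-/- replicate 1 the log2 fold change was −2.67 (DESeq2 adjusted p = 2.35e-21).

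Over the 12 CONV and COLONIZED libraries together, with the microbial state as a covariate, B3gnt6 was 5.22-fold lower in Ern2-/- (log2 fold change −2.39, SE 0.29, DESeq2 adjusted p = 4.63e-13, edgeR adjusted p = 0.000777). The 6 Ern2-/- libraries did not overlap the 6 WT libraries, which held for 2.75% of the genes tested. The fall did not differ detectably between the 2 states, with an interaction of −0.14 on the log2 scale (SE 0.60, DESeq2 adjusted p = 0.946). In GF mice, where no test is given, the log2 fold change was −2.31 (SE 0.43).

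The sexes were unequal between groups, so that the values were also read within each sex pattern. Among male libraries of COLONIZED mice B3gnt6 was 391 and 631 in WT and 142 and 69.3 in Ern2-/-, and the female libraries had 469 and 87.3. In CONV mice the only male WT library had 511 against 71.1 to 113 in the 3 Ern2-/- libraries, all of them male. With sex as a covariate the log2 fold change was −2.58 in CONV mice, which rests on that 1 male WT library and is given with no test. In COLONIZED mice, with both sexes in each group, it was −2.32 (DESeq2 adjusted p = 4.76e-12).

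With microbes, the fitted differences of B3gnt6 were smaller in size than those above. COLONIZED-WT differed from GF-WT by 0.64 (SE 0.34) and CONV-WT from GF-WT by 0.54 (SE 0.55) on the log2 scale, with overlapping libraries and no test. In Ern2-/- mice the values were 0.63 (SE 0.41) for COLONIZED and 0.39 (SE 0.43) for CONV mice. CONV and COLONIZED mice did not differ detectably, with −0.09 (SE 0.45, DESeq2 adjusted p = 0.979) in WT and −0.23 (SE 0.37, DESeq2 adjusted p = 0.724) in Ern2-/- mice.

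In crypt preparations, fewer cells of a type and less RNA per cell cannot be told apart, and marker lists were read beside B3gnt6. Of 10 goblet markers DESeq2 called 6 lower in CONV-Ern2-/- and 3 lower in COLONIZED-Ern2-/-, against 0 and 1 called by edgeR. The summed normalized counts of 10 goblet markers ranged over 82375 to 489100.0 in CONV-WT and 64626 to 74409 in CONV-Ern2-/-. The value of 82375 was that of CONV-WT replicate 3, and replicates 1 and 2 had 489100 and 437210. In COLONIZED mice they were 266534 to 343545 in WT and 143592 to 274676 in Ern2-/-, and in GF mice 176925 to 251509 and 85605 to 191454. No marker of the list was at 0 in all libraries. The 8 absorptive colonocyte markers summed to 59885 to 304119 in CONV-WT and 332058 to 480581 in CONV-Ern2-/-, and to 96647 to 204255 and 132485 to 200484 in COLONIZED mice. Here too CONV-WT replicate 3 stood apart, with 304119 against 59885 and 86281.5 in replicates 1 and 2. The 5 distal Hox genes, which mark position along the colon, summed to 794 to 3037 in CONV-WT and 141 to 1824 in CONV-Ern2-/-, and to 2624 to 4674 and 1509 to 4446 in COLONIZED mice. Of the 8 absorptive markers DESeq2 called 3 higher in CONV-Ern2-/-, with 8 at an unadjusted p under 0.05 and a median log2 fold change of 1.68. In COLONIZED-Ern2-/- it called 0, with 3 at an unadjusted p under 0.05. By edgeR 0 were called in either state. Distal Hox sums overlapped between the genotypes, in CONV mice only through CONV-Ern2-/- replicate 2 (1824), beside 168 and 141 in replicates 1 and 3. Of the 2 genes tested in CONV and 3 in COLONIZED mice DESeq2 called 0, with 0 at an unadjusted p under 0.05 and 0 called by edgeR. The 3 proximal Hox genes summed to 341 to 1728 in CONV-WT and 1246 to 2988 in CONV-Ern2-/-. In COLONIZED mice their sums were 1072 to 1423 in WT and 857 to 1751 in Ern2-/-. Of these 3 genes DESeq2 and edgeR called 0 in either state, with 1 at an unadjusted p under 0.05 in CONV and 0 in COLONIZED mice. Of 6 stem and cycling markers DESeq2 called Axin2 lower in CONV-Ern2-/-, Ascl2 lower in COLONIZED-Ern2-/-, and Ascl2, Smoc2 and Axin2 lower over both states, and edgeR called 0. Their sums were 6952 to 14439.5 in CONV-WT and 7011 to 10760.2 in CONV-Ern2-/-, and 11954 to 13226 and 12500.3 to 15622 in COLONIZED mice. The part of these markers in the B3gnt6 difference was not tested.

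Muc2, the gel-forming mucin that carries these glycans, was read beside B3gnt6. Normalized Muc2 counts were 223342, 194319 and 25213 in CONV-WT and 32893, 21049 and 18426 in CONV-Ern2-/-, 136757, 136133 and 168763 in COLONIZED-WT and 119239, 73110.4 and 59339 in COLONIZED-Ern2-/-. GF-WT had 49017, 51959.6 and 50429 and GF-Ern2-/- 39100.2, 9756 and 25789.7. The log2 ratio of B3gnt6 to Muc2 counts was −7.96 ± 0.91 (SD, n = 3) in CONV-WT and −8.12 ± 0.73 in CONV-Ern2-/-, with overlap of the libraries. In COLONIZED mice it was −8.23 ± 0.20 in WT and −9.72 ± 0.32 in Ern2-/-, without overlap of the libraries, and in GF mice −7.43 ± 0.75 and −8.44 ± 0.47, with overlap. These ratios are a description without a test.

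**Figure D2:**
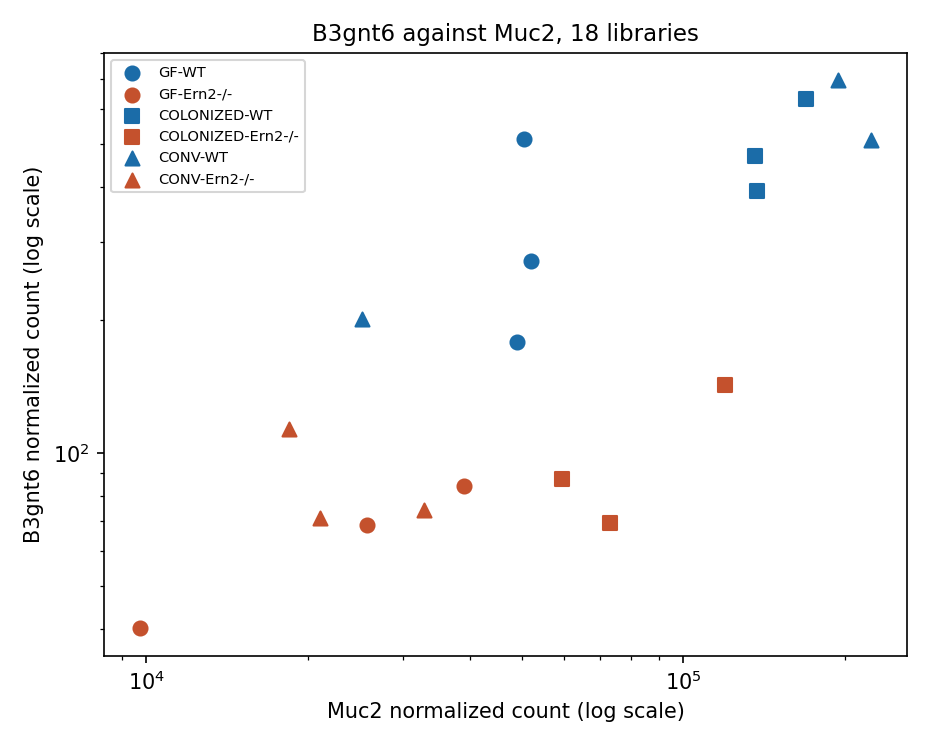
Normalized counts of B3gnt6 against those of Muc2 in the 18 libraries, both on log scales, with blue for WT, red for Ern2-/-, circles for GF, squares for COLONIZED and triangles for CONV. CONV-WT replicate 3, with a Muc2 count of 25213, has the lowest Muc2 of the WT libraries and a B3gnt6 count of 201, above all red points.

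The balance of core 3 to core 1 synthase was read as the log2 ratio of B3gnt6 to C1galt1 counts in each library. For GF mice it was −2.22 ± 0.50 (SD, n = 3) in WT against −4.48 ± 0.84 in Ern2-/-, for COLONIZED mice −1.20 ± 0.06 against −4.12 ± 0.73, and for CONV mice −1.75 ± 0.51 against −3.58 ± 0.61. The genotypes did not overlap in COLONIZED or in CONV mice, and the GF values are a description. Since B3gnt6 enters this ratio, it carries no evidence beyond that gene's own counts.

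The genes whose pattern over the 18 libraries was most like that of B3gnt6 were ranked by Pearson's r of log2(normalized count + 1) among 10851 genes with a mean of at least 50. The highest were Slc9a3r2, which encodes a scaffold protein (r = 0.90), Tmem44 (r = 0.90), the metalloproteinase inhibitor Timp2 (r = 0.87), Efcab4a (r = 0.87) and the calcium channel gene Cacna1h (r = 0.86). The lowest were the zinc finger gene Zfp772 (r = −0.83) and Pank1, which acts in coenzyme A synthesis (r = −0.82). Muc2 had an r of 0.77 and Ern2 of 0.60. Of the other 9 members, Galnt12 came nearest to B3gnt6 (r = 0.57), Galnt3 (0.39) and Galnt7 (0.30) followed, and the remaining 6 lay between −0.23 and 0.19. As deviations from group means the values were 0.65 for Galnt12, 0.49 for Galnt3 and 0.54 for Galnt7, and Gcnt1 (−0.23 over the 18 libraries, 0.67 within groups), Gcnt4 (−0.16 and 0.34), Gcnt3 (−0.10 and 0.18) and Galnt4 (−0.08 and 0.31) changed sign. The points share groups and library depth, and the r values are a description.

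**Figure D3:**
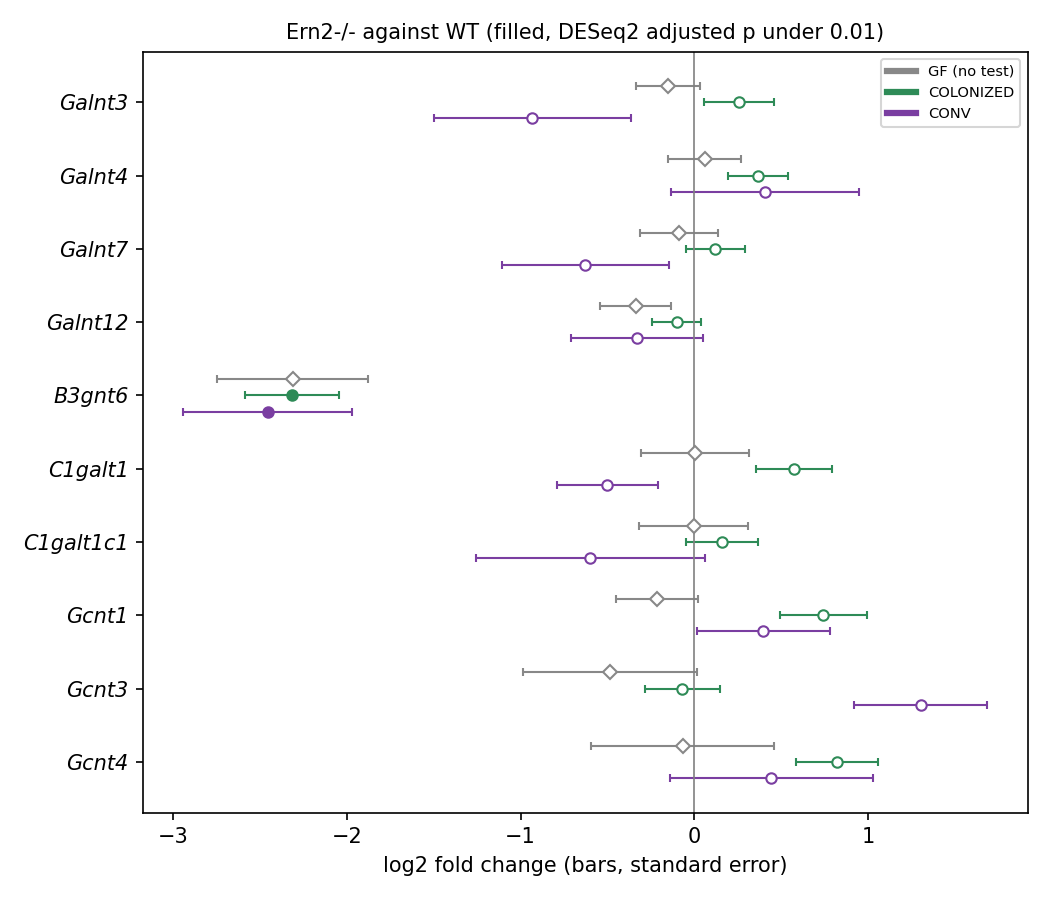
log2 fold change of Ern2-/- against WT for each member in GF (grey diamonds, no test), COLONIZED (green) and CONV (purple) mice, with standard errors as bars and filled points at a DESeq2 adjusted p under 0.01. B3gnt6 lies between −2.46 and −2.31 in the 3 states, and the other 9 members lie between −0.93 and 1.30.

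Marker lists also differed between the microbial states, whose member values follow. In WT mice the distal Hox genes summed to 4305 to 8431 normalized counts when GF, to 2624 to 4674 when COLONIZED and to 794 to 3037 when CONV. For the 4 tuft markers the sums were 832 to 1079, 1736 to 3137 and 1209 to 3891 in the same order, and for the absorptive markers 59119 to 214347, 96647 to 204255 and 59885 to 304119. The value of 304119 was that of CONV-WT replicate 3. In Ern2-/- mice the absorptive sums were 74907 to 463123 when GF, with 463123 in replicate 2 and at most 99876 in the other two, 132485 to 200484 when COLONIZED and 332058 to 480581 when CONV. Distal Hox sums there were 4259 to 8687, 1509 to 4446 and 141 to 1824, and tuft sums 823 to 1723, 1809 to 3525 and 2531 to 3543. In COLONIZED-WT against GF-WT DESeq2 called 8 of 10 goblet markers (6 higher), 4 of 4 tuft markers, all higher, 2 of 8 absorptive markers, both lower, and 2 of 4 tested distal Hox genes, both lower. In CONV-WT against GF-WT the counts were 5 of 10 (3 higher), 3 of 4 higher, 3 of 8 lower and 2 of 4 lower. Against GF-Ern2-/-, 4 goblet (3 higher), 1 tuft (higher), 4 absorptive (lower) and 0 distal Hox genes were called in COLONIZED-Ern2-/-, with 2 of 3 tested Hox genes at an unadjusted p under 0.05 and 0 called by edgeR, and 4 goblet (1 higher), 2 tuft (higher), 0 absorptive and 1 distal Hox gene (lower) in CONV-Ern2-/-. Of the absorptive markers in this last comparison 3 of 7 had an unadjusted p under 0.05 and edgeR called 0. The cycling markers Mki67 and Top2a were called higher in COLONIZED mice of both genotypes and Top2a in CONV-WT, and 2 of 4 enteroendocrine markers were called higher in both COLONIZED-Ern2-/- and CONV-Ern2-/-. In CONV-Ern2-/- against COLONIZED-Ern2-/- 6 of 8 absorptive markers were called higher (4 by edgeR), and 5 of 10 goblet (2 by edgeR) and 1 of 4 enteroendocrine markers lower. Of the mesenchymal markers Acta2 and Des were called higher in CONV-WT than in GF-WT, and Col3a1 in CONV-Ern2-/- than in either other Ern2-/- group. Their summed counts were 340 in CONV-WT replicate 3 and 218 and 306 in CONV-Ern2-/- replicates 2 and 3, against at most 102 in the other 15 libraries. The endothelial marker Pecam1 was called lower in COLONIZED-Ern2-/- than in GF-Ern2-/- or CONV-Ern2-/-, and the proximal gene Hoxb6 higher in both COLONIZED-Ern2-/- and CONV-Ern2-/- than in GF-Ern2-/-. No marker of these lists was at 0 in all libraries, and their part in the differences of the members between microbial states was not tested.

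The initiating transferases were examined next. Galnt3 (chr2:66082766-66124994), whose product glycosylates many mucin-type substrates, stood at 917, 846 and 873 normalized counts in GF-WT libraries, at 1144, 1127 and 1579 once COLONIZED and at 1959.6, 1675 and 405 under CONV conditions. The Ern2-/- libraries gave 907, 762 and 695 when GF, 1650.5, 1790.0 and 1161 when COLONIZED and 1009.8, 622 and 475 when CONV. COLONIZED libraries of either genotype were thus above all GF libraries of that genotype, and the groups were separate in this way for 46.0% of genes in WT and 33.8% in Ern2-/- mice. Galnt3 rose by 0.55 on the log2 scale in COLONIZED-WT compared with GF-WT (SE 0.17, DESeq2 adjusted p = 0.00652, edgeR adjusted p = 0.0222) and by 0.96 in COLONIZED-Ern2-/- compared with GF-Ern2-/- (SE 0.23, DESeq2 adjusted p = 0.000892, edgeR adjusted p = 0.0269). When 1 library was dropped at a time, the WT rise was called in 1 of 6 fits, the one without COLONIZED-WT replicate 2, with DESeq2 adjusted p values over the 6 from 0.00629 to 0.0461. The Ern2-/- rise was called in 3 of 6 and lost without GF-Ern2-/- replicate 3 or COLONIZED-Ern2-/- replicate 1 or 2. Without the 3 libraries whose Ern2 counts go against the label, 1 GF-Ern2-/- and 2 COLONIZED-Ern2-/- libraries are left, and the Ern2-/- value was 0.93, with no test. All GF-WT libraries were female and 1 of COLONIZED-WT was, so a fit with sex as a covariate compares that 1 library, and its WT value of 0.37 is given with no test. CONV-Ern2-/- was below COLONIZED-Ern2-/-, with a log2 difference of −1.12 (SE 0.30, DESeq2 adjusted p = 0.00307, edgeR adjusted p = 0.0268).

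Galnt12 (chr4:47091909-47123070) encodes a transferase expressed mainly in the digestive tract. WT libraries gave 1681, 1636 and 2209 normalized counts when GF, 2529, 2519 and 3034 when COLONIZED and 2935, 2771 and 1273 when CONV. Those labelled Ern2-/- gave 1569.7, 1469 and 1318 when GF, 2674, 2665 and 2208 when COLONIZED and 2358, 1458 and 1722 when CONV. As for Galnt3, no COLONIZED library overlapped the GF libraries of its genotype. The rise was 0.56 on the log2 scale in WT (SE 0.17, DESeq2 adjusted p = 0.00609, edgeR adjusted p = 0.0246) and 0.79 in Ern2-/- mice (SE 0.18, DESeq2 adjusted p = 0.000259, edgeR adjusted p = 0.0271). When 1 library was dropped at a time, the Ern2-/- rise was called in 6 of 6 fits and the WT rise in 1 of 6, without GF-WT replicate 3. In 1 fit of all 18 libraries neither rise was called for Galnt12 (0.55 in WT, DESeq2 adjusted p = 0.14, and 0.79 in Ern2-/- mice, DESeq2 adjusted p = 0.0242) or for Galnt3 (DESeq2 adjusted p = 0.374 and 0.0895). With log2 library total added the WT rise was not called for Galnt12 (DESeq2 adjusted p = 0.0136) or Galnt3 (DESeq2 adjusted p = 0.108), and the Ern2-/- rise was called for both. In the same reduced set of 1 and 2 libraries the Ern2-/- value was 0.71, with no test. In GF mice, with no test, Ern2-/- libraries were all below WT libraries, with a log2 difference of −0.34 (SE 0.20). These GF groups did not overlap for 6.10% of genes. The only female library of COLONIZED-WT had 2519 against 1636 to 2209 in GF-WT, where all libraries were female, and with sex as a covariate the WT value, which rests on that library, was 0.46, with no test.

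Galnt7 (chr8:57523828-57653032) encodes a follow-on transferase, which prefers substrates that already carry a sugar. It had normalized counts of 5282, 4553 and 3532 in COLONIZED-Ern2-/- and 2977, 2195 and 1658 in CONV-Ern2-/-, with all CONV libraries below all COLONIZED libraries, and the groups did not overlap for 35.9% of genes. The log2 fold change was −0.96 (SE 0.26, DESeq2 adjusted p = 0.00299, edgeR adjusted p = 0.0288). CONV-Ern2-/- replicates 2 and 3 are the shallowest of the series, and a fit with log2 library total added gave −0.42 (DESeq2 adjusted p = 0.376) for Galnt7 and −0.48 (DESeq2 adjusted p = 0.4) for Galnt3. When 1 library was dropped at a time, each of these calls was made in 2 of 6 fits. Without COLONIZED-Ern2-/- replicate 1, whose Ern2 count goes against its label, neither gene passed the threshold, with DESeq2 adjusted p values of 0.0619 and 0.0455. In the WT groups and in GF mice Galnt7 ranged over 1379 to 4642, with the lowest value in CONV-WT replicate 3.

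Galnt4 (chr10:99108159-99113247), whose product also acts on partly glycosylated peptides, was called in no comparison of 2 groups fitted without covariates and with all libraries. Its group means ran from 3864 ± 1959 (SD, n = 3) in CONV-WT to 7236 ± 1173 in COLONIZED-Ern2-/-. The closest to the threshold was COLONIZED-Ern2-/- against GF-Ern2-/-, with 6370.5, 8570.2 and 6766 against 4083, 5931 and 4406 and a log2 difference of 0.58 (SE 0.23, DESeq2 adjusted p = 0.0646). It was called there without GF-Ern2-/- replicate 2 (0.78, DESeq2 adjusted p = 0.000358) and with the replicate number as a block (0.59, DESeq2 adjusted p = 0.00777). It was called lower in CONV-Ern2-/- than in COLONIZED-Ern2-/- without CONV-Ern2-/- replicate 1. With log2 library total added it was called higher in CONV-Ern2-/- than in CONV-WT (1.09, DESeq2 adjusted p = 0.00178), in Ern2-/- over both states (0.81, DESeq2 adjusted p = 0.0028) and in CONV-WT against GF-WT, where the direction turned. In the last of these comparisons all CONV-WT libraries were shallower than all GF-WT libraries, which confounds depth with group. Galnt4 shares 8.25% of its exon bases with Poc1b on the same strand and Galnt7 shares 1.87% with AW046200 on the opposite strand, so part of their reads may be uncertain.

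**Figure D4:**
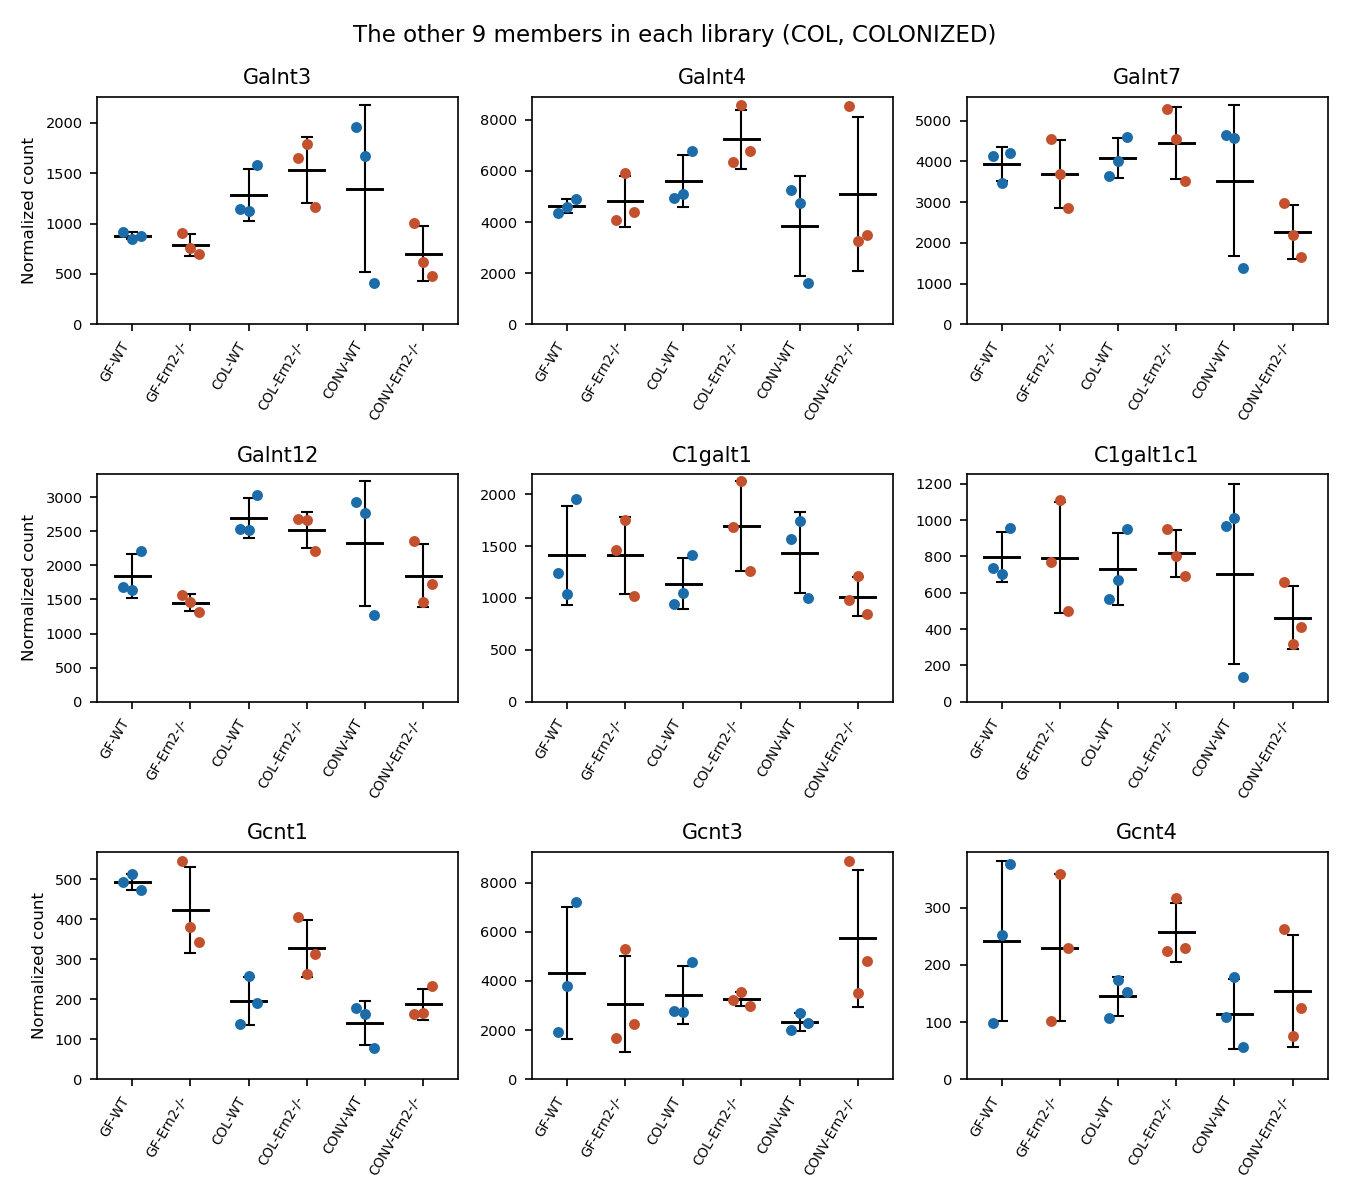
Normalized counts (linear axes from 0) of the other 9 members in the 18 libraries, with blue points for WT, red for Ern2-/-, the mean as a line and the SD of 3 libraries as the bar. Gcnt1 is highest in the GF groups, Galnt3 and Galnt12 are higher in the COLONIZED than in the GF groups, and CONV-WT replicate 3 is the lowest point of its group in 8 of the 9 panels.

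Core 1 enzymes did not pass the test in any comparison fitted without covariates and with all libraries. C1galt1 (chr6:7844842-7875687) gave 1242, 1039.6 and 1950.0 normalized counts for GF-WT libraries, 943, 1052 and 1413 when COLONIZED and 1566, 1742 and 999 when CONV. Ern2-/- libraries gave 1465, 1749.8 and 1015 when GF, 1683, 2130.4 and 1263 when COLONIZED and 985, 1211 and 847 when CONV. CONV-Ern2-/- and COLONIZED-Ern2-/- did not overlap, as for 35.9% of genes, with a log2 difference of −0.73 (SE 0.24, DESeq2 adjusted p = 0.0212). C1galt1 was called lower there with the replicate number as a block, with sex as a covariate and without COLONIZED-Ern2-/- replicate 3. These fits called 939, 630 and 652 genes over all, against 1125. Its genotype difference was 0.57 (SE 0.22, DESeq2 adjusted p = 0.0968) in COLONIZED and −0.50 (SE 0.29, DESeq2 adjusted p = 0.398) in CONV mice. The test of the difference between these 2 effects gave −1.07 (SE 0.39, DESeq2 adjusted p = 0.122), which misses the threshold, and was called without CONV-WT replicate 3 (−1.27, DESeq2 adjusted p = 0.00274).

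C1galt1c1 (chrX:38630785-38635087), the chaperone gene on the X chromosome, had 968, 1013 and 133 normalized counts in CONV-WT, where replicate 3 was far below every other library of the series. The remaining 15 libraries ran from 320 to 1109. CONV-Ern2-/- held 659, 319.9 and 411 and COLONIZED-Ern2-/- 953, 804 and 692, without overlap (as for 35.9% of genes), for a log2 difference of −0.80 (SE 0.29, DESeq2 adjusted p = 0.0347). C1galt1c1 was called lower there with the replicate number as a block and without CONV-Ern2-/- replicate 1. These fits called 939 and 2557 genes over all, against 1125. Without CONV-WT replicate 3, the log2 difference of CONV-Ern2-/- from CONV-WT was −1.09 (DESeq2 adjusted p = 0.00886), against −0.60 (SE 0.66, adjusted p = 0.732) with it.

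The core 2 enzymes followed. Gcnt1 (chr19:17326141-17372844) encodes the leukocyte-type core 2 branching enzyme, and WT libraries gave 492, 513 and 472 normalized counts when GF, 138, 258 and 189.7 when COLONIZED and 179, 164 and 78.5 when CONV. GF-WT libraries lay close together and above all WT libraries with microbes. GF-WT did not overlap COLONIZED-WT for 46.0% of genes and CONV-WT for 36.2%. Gcnt1 was 2.51-fold lower in COLONIZED-WT (log2 fold change −1.33, SE 0.23, DESeq2 adjusted p = 2.75e-07, edgeR adjusted p = 0.00449) and 3.49-fold lower in CONV-WT than in GF-WT (log2 fold change −1.80, SE 0.33, DESeq2 adjusted p = 2.31e-06, edgeR adjusted p = 0.0222). Both calls of DESeq2 were kept in 6 of 6 fits with 1 library dropped, but with log2 library total added the CONV-WT value was −1.04 (DESeq2 adjusted p = 0.0309), which misses the threshold. All CONV-WT libraries were shallower than all GF-WT libraries, so the fit with library total cannot separate depth from group. The only female library of COLONIZED-WT had 258, below the 3 female GF-WT libraries, and with sex as a covariate the COLONIZED value, which rests on that library, was −0.92, with no test. These 2 comparisons share the GF-WT libraries.

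For Ern2-/- libraries the Gcnt1 counts were 546, 380.0 and 343 when GF, 404, 264 and 314 when COLONIZED and 164, 167 and 232 when CONV. All 3 CONV libraries were below all GF libraries, and the groups did not overlap for 24.3% of genes. CONV-Ern2-/- was 2.28-fold lower than GF-Ern2-/- (log2 fold change −1.19, SE 0.30, DESeq2 adjusted p = 0.00288, edgeR adjusted p = 0.0366). That call was kept in 3 of 6 fits with 1 library dropped and lost without GF-Ern2-/- replicate 1 or CONV-Ern2-/- replicate 1 or 2. It was also absent with the replicate number as a block (DESeq2 adjusted p = 0.0188). With log2 library total added 0 members were called in this comparison, and 111 genes over all against 576 without it. Without GF-Ern2-/- replicates 1 and 3, whose Ern2 counts go against the label, 1 GF-Ern2-/- library is left, so the value of −1.04 is given with no test. COLONIZED-Ern2-/- libraries overlapped GF-Ern2-/-, with a log2 difference of −0.37 (SE 0.27, DESeq2 adjusted p = 0.407). The response to colonization was not shown to differ between the genotypes, since the interaction was 0.96 on the log2 scale (SE 0.36, DESeq2 adjusted p = 0.844). COLONIZED-Ern2-/- did not overlap COLONIZED-WT, and the log2 fold change of 0.74 (SE 0.25) had a DESeq2 adjusted p of 0.0603. The groups did not overlap for 29.0% of genes in that comparison.

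Gcnt3 (chr9:70031496-70038088) encodes the mucin-type enzyme that forms core 2 and core 4 branches. Its counts varied widely within groups, with 1917, 3798 and 7219.7 in GF-WT and 1677, 5283 and 2237 in GF-Ern2-/-. CONV-Ern2-/- had 8884, 3519 and 4793 and CONV-WT 1999, 2710.2 and 2279, so that the 2 groups did not overlap, as for 21.1% of genes. The log2 fold change of 1.30 (SE 0.38) had a DESeq2 adjusted p of 0.0185 and an edgeR adjusted p of 0.156, and did not pass the threshold. It passed in 2 of 6 fits with 1 library dropped (CONV-WT replicate 3 or CONV-Ern2-/- replicate 2), with values from 0.82 to 1.56. Gcnt3 was also called higher with log2 library total added, where 575 genes were called over all against 381 without it. In COLONIZED mice the genotype difference was −0.07 (SE 0.22), and the test of the difference between CONV and COLONIZED mice gave 1.37 (SE 0.47, DESeq2 adjusted p = 0.101).

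Gcnt4 (chr13:96924689-96950906), a core 2 enzyme with the lowest level of the 10 genes per kb, had 108, 174 and 153 normalized counts in COLONIZED-WT and 225, 317 and 229 in COLONIZED-Ern2-/-. These did not overlap, as for 29.0% of genes, with a log2 difference of 0.82 (SE 0.24, DESeq2 adjusted p = 0.0238, edgeR adjusted p = 0.129) that did not pass the threshold. The GF groups spread over 97.6 to 377 in WT and 101 to 359 in Ern2-/-, and the CONV groups over 56.6 to 179 and 75.5 to 263. With log2 library total added, Gcnt4 was called higher in Ern2-/- over CONV and COLONIZED mice. In that fit 661 genes were called over all, against 515 without the covariate. Gcnt4 shares 10.5% of its exon bases with Gm48597 on the opposite strand.

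**Figure D5:**
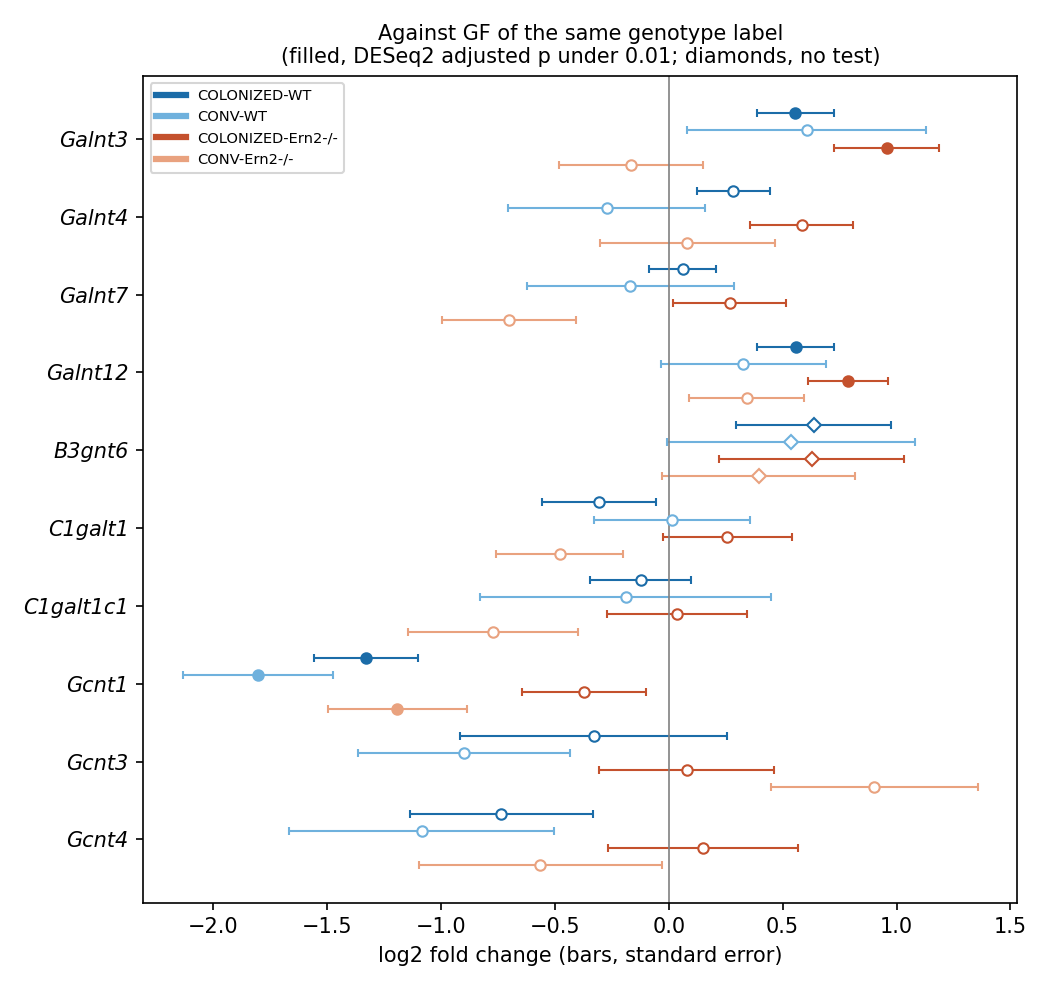
log2 fold change of each member in COLONIZED and CONV mice against GF mice of the same genotype label, with WT in blue and Ern2-/- in red (dark for COLONIZED, light for CONV), standard errors as bars, filled points at a DESeq2 adjusted p under 0.01 and diamonds for B3gnt6, which has no test here. Gcnt1 lies at or below −1.19 in 3 of the 4 comparisons, and Galnt3 and Galnt12 are filled in both COLONIZED comparisons.

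Counted over the set, B3gnt6 was the 1 member of 10 called by DESeq2 in the CONV genotype comparison, in the COLONIZED one and over both, where 3.77% of all genes were called by DESeq2 and 0.407% by edgeR. The set was chosen by this gene, so its call is not a result about the set, and no other member was called. With B3gnt6 included, 2, 5 and 4 members had an unadjusted DESeq2 p under 0.05 in the same order. The members' median log2 fold change was −0.42 in CONV and 0.21 in COLONIZED mice, beside 0.02 and −0.01 over all genes tested. Without CONV-WT replicate 3, 5 members were called in the CONV comparison, of which B3gnt6, C1galt1c1, Galnt3 and Galnt7 were lower and Gcnt3 was higher in CONV-Ern2-/-. In that fit 1686 genes were called over all, against 381 with the library.

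Of the 9 members tested against GF-WT, 3 were called in COLONIZED-WT, where 17.8% of all genes were called. Of these 2 were higher, as for 9.07% of genes, and 1 was lower, as for 8.70%. In CONV-WT 1 member was called, beside 11.0% of genes. Against GF-Ern2-/- the counts were 2 of 9 in COLONIZED-Ern2-/-, where 7.65% of genes were called, and 1 of 9 in CONV-Ern2-/-, where 4.10% were. CONV-Ern2-/- differed from COLONIZED-Ern2-/- in 2 of 10 members, both lower, with 8.59% of genes called and 3.73% called lower. By edgeR, 5.43% of genes were called in COLONIZED-WT and 0.379% in CONV-WT against GF-WT, 0.812% and 0.571% in the same states of Ern2-/- mice, and 1.67% between CONV-Ern2-/- and COLONIZED-Ern2-/-. CONV-WT and COLONIZED-WT differed in 0 of 10 members by DESeq2, with 0 at an unadjusted p under 0.05 and 0 called by edgeR, and 0.108% of genes were called. No member was called by DESeq2 or edgeR in the 3 tests of whether the effect of microbes differed between the genotypes, where 1, 1 and 2 members had an unadjusted DESeq2 p under 0.05 and 0.177%, 0.0280% and 0.325% of genes were called.

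Other genes of the pathway were read in the same fits as 3 lists, with 15 other polypeptide GalNAc-transferases, 39 enzymes that extend, branch, cap or sulfate O-glycans, and 17 genes for sugar nucleotides and their transporters. In CONV-Ern2-/- against CONV-WT, 1 of 8 tested transferases, 3 of 34 extension and capping enzymes and 2 of 16 sugar nucleotide genes were called, where 2.87% of all genes were. The transferase was Galnt5 (−2.01, SE 0.39, DESeq2 adjusted p = 2.61e-05, edgeR adjusted p = 0.0455). Of the second list B3gnt9, a member of the same gene family as B3gnt6, fell (−2.38, SE 0.45, DESeq2 adjusted p = 2.50e-05, edgeR adjusted p = 0.0483), as did the sialyltransferase St6gal1 (−1.28, SE 0.31, DESeq2 adjusted p = 0.00193, edgeR adjusted p = 0.0844), whereas Gcnt2, which makes I branches, rose (1.95, SE 0.42, DESeq2 adjusted p = 0.000332, edgeR adjusted p = 0.0688). Of the third list the nucleotide sugar transporters Slc35d2 and Slc35d1 rose, with log2 fold changes of 1.03 and 1.63 (DESeq2 adjusted p = 0.00439 and 0.00926). None of these 6 calls was made by edgeR at an adjusted p under 0.01.

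In COLONIZED-Ern2-/- against COLONIZED-WT the calls were 2 of 35 extension and capping enzymes, both lower, beside 1.20% of all genes. The sialyltransferase St3gal4 ranged over 382 to 787 normalized counts in Ern2-/- and 1450.4 to 2219 in WT (−1.85, SE 0.26, DESeq2 adjusted p = 1.18e-09, edgeR adjusted p = 0.0109), and B3gnt9 over 62.2 to 129 and 175 to 210.4 (−1.11, SE 0.27, DESeq2 adjusted p = 0.0059, edgeR adjusted p = 0.109). Of the other 2 lists DESeq2 called 0 of 9 transferases and 0 of 17 sugar nucleotide genes, with 2 and 3 at an unadjusted p under 0.05 and 0 and 0 called by edgeR. Over CONV and COLONIZED mice together, where 3.77% of all genes were called, B3gnt9 was lower (−1.70, SE 0.31, DESeq2 adjusted p = 6.65e-06, edgeR adjusted p = 0.00995), and Gcnt2 (1.27, SE 0.35, DESeq2 adjusted p = 0.00954, edgeR adjusted p = 0.0807) and Slc35d2 (0.73, SE 0.17, DESeq2 adjusted p = 0.00122, edgeR adjusted p = 0.0465) were higher in Ern2-/-.

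Against GF-WT, COLONIZED-WT had 3 of 9 transferases, 11 of 35 extension and capping enzymes and 4 of 17 sugar nucleotide genes called, and CONV-WT had 3 of 9, 8 of 35 and 1 of 17. Over all genes 17.8% and 11.0% were called. By edgeR the counts were 0 of 9, 5 of 35 and 2 of 17 in COLONIZED-WT and 0 of each list in CONV-WT, so that none of the transferases named next passed edgeR. Of the transferases Galnt10 (0.42) and Galnt6 (0.75) rose and Galnt18 fell (−1.99 on the log2 scale) in COLONIZED-WT, and Galnt18 (−2.46) and Galnt11 (−0.79) were lower in CONV-WT. Wbscr17, also lower, had 0 to 1.89 normalized counts in CONV-WT and 18.7 to 55.3 in GF-WT. Of the second list B3gnt9 was higher in both, by 2.01 in COLONIZED-WT (SE 0.25, DESeq2 adjusted p = 9.13e-14) and by 2.20 in CONV-WT (SE 0.39, DESeq2 adjusted p = 1.11e-06). The glycan-sulfating enzyme gene Gal3st2 was lower in CONV-WT (−2.16, SE 0.32, DESeq2 adjusted p = 1.44e-09, edgeR adjusted p = 0.0118). In Ern2-/- mice the counts were 2 of 9, 5 of 33 and 1 of 16 for COLONIZED and 1 of 9, 5 of 34 and 2 of 17 for CONV mice against GF, beside 7.65% and 4.10% of all genes. Of these edgeR called 0, 3 and 0 for COLONIZED and 0, 2 and 0 for CONV mice.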

How the data were processed

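The series holds RNA-Seq libraries of colon crypt epithelium, 18 in 6 groups of 3, grouped by the sample names. The authors deposited raw counts per gene from STAR, in the VIPER workflow, on mm10 per the labels (the submitters' processing notes). The annotation, tool versions and strand setting of the counting were not given in the sources used here. Library totals are given with the data, and standard errors give the precision of the fitted values.

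The 10 members and the pathway lists were chosen with earlier results of these data known, among them the germ-free difference of B3gnt6, and its other contrasts may have been in view. Counts were tested with DESeq2 1.42.0 in R 4.3.3, with the 6 libraries of each pair of groups in 1 fit, Benjamini-Hochberg adjustment over all genes tested and calls at an adjusted p under 0.01, which is the study's tool and threshold. Genotype over CONV and COLONIZED libraries was fitted with the microbial state as a covariate, and interactions in fits of 12 libraries. The edgeR 4.0.16 quasi-likelihood test was the alternative tool. Displayed counts were divided by DESeq2 size factors of all 18 libraries. Named genes were all members and the 5 genes most and 2 least like B3gnt6 (log2 with a pseudocount of 1). Genes named from a pathway list were among its up to 3 called genes of smallest adjusted p in a comparison. Not all of these are named. Replicates of a group differed by more than sampling noise. The scripts were tested on simulated data. Of the per-sample columns, 0 were left unused. Positions and exon lengths came from GENCODE M21 and promoters from RefSeq, both on GRCm38. Date-like symbols, 27 in the table, concerned no member.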

Additional observations from a re-analysis of the deposited data

How the results depend on the processing

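B3gnt6 was called lower in Ern2-/- in 6 of 6 DESeq2 fits that left out 1 library in CONV mice (log2 fold change −2.83 to −2.07), in 6 of 6 in COLONIZED mice (−2.67 to −2.11) and in 12 of 12 over both (−2.56 to −2.21). In CONV mice edgeR gave −2.46 for B3gnt6 with an adjusted p of 0.0569. The GF difference of B3gnt6, which has no test, was −2.60 to −1.79 without 1 library and −1.86 in a fit with log2 library total added.

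With edgeR the number of members called was 0 for CONV-Ern2-/- against CONV-WT (1 with DESeq2), 0 for CONV-WT against GF-WT (1), 1 for COLONIZED-WT against GF-WT (3), 0 for CONV-Ern2-/- against GF-Ern2-/- (1), 0 for COLONIZED-Ern2-/- against GF-Ern2-/- (2) and 0 for CONV-Ern2-/- against COLONIZED-Ern2-/- (2). In fits with library total as covariate these numbers were 3, 4, 1, 0, 2 and 1 in the same order, 3 for CONV-WT against COLONIZED-WT (0 without it) and 3 for genotype over CONV and COLONIZED (1). Over all genes, the first 6 of these fits called 575, 1056, 1314, 111, 986 and 263, against 381, 1521, 2482, 576, 1016 and 1125 without the covariate. For CONV-WT against COLONIZED-WT 757 genes were called against 16, and for genotype over CONV and COLONIZED 661 against 515. The 4 called in CONV-WT against GF-WT were C1galt1c1, Galnt3, Galnt4 and Galnt12, and Gcnt1, the 1 member called without the covariate, was not among them. The 1 called in CONV-Ern2-/- against COLONIZED-Ern2-/- was Gcnt3, higher (1.41), in place of Galnt3 and Galnt7. That covariate also turned the direction of C1galt1c1 (1.67, DESeq2 adjusted p = 0.000326) and Galnt4 (0.87, 0.0051) in CONV-WT against GF-WT, and of C1galt1c1 (1.43, 0.0024) and Galnt7 (0.78, 0.00793) in CONV-WT against COLONIZED-WT. Totals did not overlap in these 2 comparisons, with 8.20e6 to 15.9e6 in CONV-WT and 18.8e6 to 23.2e6 in GF-WT and COLONIZED-WT. Depth and group are therefore confounded there, and these covariate fits extrapolate across depth. One fit of all 18 libraries called 1 member, Gcnt1, in COLONIZED-WT against GF-WT, 0 in COLONIZED-Ern2-/- against GF-Ern2-/- and 0 in CONV-Ern2-/- against COLONIZED-Ern2-/-. Over all genes that fit called 1288, 1166 and 432 in the same order, against 2482, 1016 and 1125 in the fits of each pair of groups. With sex as a covariate, the fit of COLONIZED-WT against GF-WT compares 1 female COLONIZED-WT library with the GF-WT libraries. Without the libraries whose Ern2 counts go against the label, 0 members were called in CONV-Ern2-/- against COLONIZED-Ern2-/-, with 417 genes over all against 1125. In the 2 comparisons with GF-Ern2-/- 1 library of that group is left, which the fit assumes to vary like the other group. Calls of these fits and of the fit with sex are not counted, since neither says how stable the calls are. The causes of these changes were not tested.

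Without 1 library, the members called ranged from 1 to 5 for CONV genotype (5 without CONV-WT replicate 3, 2 without CONV-Ern2-/- replicate 2), 1 to 3 for CONV-WT against GF-WT, 1 to 2 for COLONIZED-WT against GF-WT, 0 to 2 for CONV-Ern2-/- against GF-Ern2-/-, 1 to 4 for COLONIZED-Ern2-/- against GF-Ern2-/- (4 without GF-Ern2-/- replicate 2, with 1340 genes against 1016), 0 to 6 for CONV-Ern2-/- against COLONIZED-Ern2-/- (6 without CONV-Ern2-/- replicate 1, where 2557 genes were called over all against 1125), and 0 to 3 for the interaction of CONV and COLONIZED with genotype (3 without CONV-WT replicate 3, where 1231 genes were called over all against 40). Over all genes, the fits for CONV-WT against GF-WT called 599 to 2888 (2888 without CONV-WT replicate 3, with 3 members), against 1521 with all libraries. Those for COLONIZED-WT against GF-WT called 1298 to 2684 genes, against 2482. Those for CONV-Ern2-/- against GF-Ern2-/- called 251 to 959 (959 without GF-Ern2-/- replicate 2, with 2 members), against 576.

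The labels name no pairing, and whether replicate numbers share a factor was not settled. Of 45 pairs of same-numbered libraries 21 had deviations from group means correlated over 0.1 (range −0.44 to 0.63). Differently numbered pairs were not read for comparison. With the replicate number as a block, 0 members were called in CONV-Ern2-/- against GF-Ern2-/-, where 537 genes were called over all against 576 without it. In CONV-Ern2-/- against COLONIZED-Ern2-/- 4 were called, C1galt1, C1galt1c1, Galnt3 and Galnt7, all lower, with 939 genes over all against 1125. B3gnt6 with the block was −2.33 in CONV mice (DESeq2 adjusted p = 3.66e-05), −2.35 in COLONIZED mice (9.04e-15) and −2.39 over both (1.53e-11). The CONV groups hold the shallowest libraries, which limits what their comparisons can show.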

Other observations

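Genes beside B3gnt6 were read for the genotype comparisons, as the 4 on each side with a mean of at least 50 normalized counts, a choice made after the location of B3gnt6 and Ern2 on chromosome 7 was seen. Of the 8 neighbours Pak1, Myo7a, Capn5, Omp, Acer3, Tsku, Uvrag and Dgat2, the triglyceride synthesis gene Dgat2 was called, and it was higher in CONV-Ern2-/- (log2 fold change 1.81, SE 0.33, DESeq2 adjusted p = 5.98e-06). Dgat2 lies 954 kb from B3gnt6. Over CONV and COLONIZED mice together Dgat2 was also called higher in Ern2-/- (log2 fold change 1.10, SE 0.27, DESeq2 adjusted p = 0.00175). In COLONIZED mice it was 0.40 (DESeq2 adjusted p = 0.111), and the adjusted p values of the 8 neighbours ran from 0.111 to 0.989. Of the genes called by DESeq2 between the genotype labels, 11.1% in CONV and 13.2% in COLONIZED mice lay on chromosome 7, which held 7.77% and 7.79% of the genes tested that had a position. These shares are a description without a test.

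Member levels were also read against library depth. Over the 18 libraries, Pearson's r of log2(normalized count + 1) with the log2 library total was 0.85 for Galnt7, 0.73 for C1galt1c1, 0.60 for Galnt3, 0.55 for Galnt4, 0.54 for Gcnt1, 0.49 for Gcnt4, 0.43 for Galnt12, 0.42 for C1galt1, 0.33 for B3gnt6 and −0.01 for Gcnt3. As deviations from group means it was 0.82 for Galnt7, 0.79 for Galnt3, Galnt4 and Galnt12, 0.72 for C1galt1c1, 0.48 for Gcnt4, 0.41 for C1galt1, 0.37 for Gcnt1, 0.35 for B3gnt6 and 0.33 for Gcnt3. Group and depth are shared between the points, and these values are a description.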
